A study of Mus musculus with 6 samples.

Results

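Heat shock proteins and chaperones were taken as the genes whose annotated mouse symbol begins with Hsp followed by a digit or by a, b, d, e or h, with Dnaja, Dnajb, Dnajc or Cct followed by a digit, or is Tcp1. Of the 19057 genes named on the array, 77 met this rule, with 147 probes between them, and 62 of the 77 passed the filter on dim probes and were tested among 10913 genes. The small heat shock proteins supplied 8 of the 77 genes, the Hsp70 family 11, the Hsp110 family 3, Hsp90 2, mitochondrial Hsp60 and Hsp10 2, the cytosolic chaperonin TRiC 10, and the Hsp70 cochaperone list only Hspbp1. The J-domain genes were the largest block, with 3 Dnaja, 12 Dnajb and 25 Dnajc genes.

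The 6 arrays held RNA of OG2 mice, a strain with a green fluorescent reporter driven by the regulatory region of Pou5f1, in 3 groups of 2 arrays. The HF group was hair follicle cells of dorsal skin at an age of 2 months. The HFGSC group was cells labelled as germline stem cells derived from hair follicle, likewise of dorsal skin, at 4 months, and the GSC group was testis germline stem cells at 3 months. The groups therefore also differed in age, and tissue, age and cell type cannot be told apart between HF or HFGSC and GSC. Between HF and HFGSC, age and cell type likewise cannot be told apart. The sources used here do not give the culture conditions, the number of animals pooled or whether the 2 arrays of a group came from separate animals, so every p-value measures the spread between these samples only, which may be technical. An exact test on 2 arrays against 2 could not give a two-sided p below 0.333.

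Chaperones keep other proteins from aggregating and help them reach or keep their folded state. Hsp70 proteins bind short unfolded stretches in a cycle that J-domain proteins start and that Hsp110 proteins reset by exchanging the bound nucleotide. Hsp90 acts later, on nearly folded clients, while the chaperonins enclose a client in a ring, and small heat shock proteins hold clients without using ATP. Many of the genes are switched on by heat shock factors, which bind promoters at inverted repeats of a GAA unit called heat shock elements, and several members exist as testis versions made during the formation of sperm.

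Promoters of members that the results turn on are shown with these repeats in capitals. Each was taken from RefSeq on build GRCm38.p6, and the 4 longer ones are the 250 bases that end just before an annotated start of transcription. The longer repeat searched for was GAANNTTCNNGAA or, read on the other strand, TTCNNGAANNTTC, and the shorter was GAANNTTC or TTCNNGAA, each of which reads the same on both strands and lies inside the longer one. The longer repeat stood within 250 bases before the start in 139 of 27025 genes (0.514%) and in 3 of the 64 members with a sequence (4.69%), namely Dnajb6, Hspd1 and Hspe1. The shorter one stood there in 14.5% of all genes and in 16 of the 64 members (25%). Hspd1 and Hspe1 encode Hsp60 and Hsp10, partners in 1 mitochondrial chaperonin, and lie head to head on chromosome 1, with starts at 55087932 (minus strand) and 55088148 (plus strand). They share the longer repeat, shown in the 30 bases around it, because another annotated Hspd1 start, at 55088243, places the surrounding stretch inside a transcript. Dnajb6, a suppressor of protein aggregation, carries a longer repeat, while Hsph1, an Hsp110 protein, Hspb1, a small heat shock protein, and Hspa1a, the inducible Hsp70, carry shorter ones.
Hspd1 and Hspe1, chr1:55088053-55088082 (plus strand): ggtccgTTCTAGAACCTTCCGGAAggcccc
Dnajb6, chr5:29735648-29735897 (plus strand): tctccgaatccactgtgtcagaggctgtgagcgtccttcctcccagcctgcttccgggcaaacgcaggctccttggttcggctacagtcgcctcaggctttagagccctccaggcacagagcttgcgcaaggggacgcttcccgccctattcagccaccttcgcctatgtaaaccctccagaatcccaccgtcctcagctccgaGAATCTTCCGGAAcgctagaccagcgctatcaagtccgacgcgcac
Hsph1, chr5:149636337-149636586 (minus strand): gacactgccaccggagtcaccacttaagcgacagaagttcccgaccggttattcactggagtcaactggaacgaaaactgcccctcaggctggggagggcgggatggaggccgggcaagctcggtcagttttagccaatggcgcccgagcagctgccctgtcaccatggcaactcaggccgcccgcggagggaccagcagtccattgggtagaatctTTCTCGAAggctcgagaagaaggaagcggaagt
Hspb1, chr5:135887669-135887918 (plus strand): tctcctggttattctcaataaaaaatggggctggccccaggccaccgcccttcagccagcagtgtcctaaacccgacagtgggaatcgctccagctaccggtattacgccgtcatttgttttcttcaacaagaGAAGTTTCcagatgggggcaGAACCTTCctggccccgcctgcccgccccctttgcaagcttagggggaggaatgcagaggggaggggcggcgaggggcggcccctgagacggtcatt
Hspa1a, chr17:34972157-34972406 (minus strand): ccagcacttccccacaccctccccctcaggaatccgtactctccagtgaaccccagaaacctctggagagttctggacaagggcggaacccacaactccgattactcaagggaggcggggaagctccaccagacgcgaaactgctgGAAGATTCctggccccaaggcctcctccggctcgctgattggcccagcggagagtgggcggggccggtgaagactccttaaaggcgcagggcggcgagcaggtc
A match describes the letters only and shows no bound factor. No promoter sequence was matched for Cct4, Dnajc2, Dnajc5, Dnajc5b, Dnajc11, Dnajc12, Dnajc18, Dnajc30, Hsp90aa1, Hspa8, Hspa9, Hspa13 or Hspb2.

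Levels are log2 intensities after background correction and quantile normalization, in which 1 unit is a factor of 2, and a probe counted as detected at a detection p under 0.05. Levels of different probes are not on a shared scale, so each gene is compared with itself only. Both arrays of a group detected 48 of the 77 members in HF (62.3%, against 44.1% of all named genes), 56 in HFGSC (72.7%, against 52.6%) and 59 in GSC (76.6%, against 52.1%). All 6 arrays detected 45 of the 62 tested members. The other 17 passed the filter through the groups in which they were bright: 8 through HFGSC and GSC together, 3 through HFGSC alone, 3 through GSC alone and 3 through HF and GSC. No array detected Cct8l1, Dnajb7, Dnajb8, Dnajb14, Dnajc5b, Dnajc6, Dnajc14, Hspa12a, Hspa14, Hspb3, Hspb7 or Hspb11, and Dnaja1, Hspa13 and Hspb2 were detected on scattered arrays and did not pass the filter.

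Of the markers of spermatogonia, all 10 were tested, 9 were higher in HFGSC and 10 in GSC than in HF, and their summed log2 levels were 57.1 and 59.6 in HF, then 126 and 117 in HFGSC, then 125 and 123 in GSC. Of 12 follicle keratinocyte markers, Krt5, Krt14, Krt15, Trp63, Krt1 and Epcam were not detected on any array, the HF arrays included, and the 5 tested ones summed to 39.2 and 41.5 in HF, where HFGSC gave 43.8 and 45.7 and GSC gave 45.3 and 47.2. Of 11 markers of meiotic cells and spermatids, Stra8, Sycp3, Dmc1, Hormad1, Acrv1, Prm1 and Tnp2 were not detected on any array, and the 3 tested ones, Tnp1, Odf1 and Ldhc, summed to 16.2 and 15.9 in HF, while HFGSC stood at 23.8 and 21.9 and GSC at 22.4 and 23.8. Of 10 fibroblast markers 9 were tested, of which 5 rose and 1 fell in HFGSC and 4 rose and 2 fell in GSC, summing to 79.1 and 79.0 in HF, then 96.2 and 110 in HFGSC, then 94.7 and 92.4 in GSC. Of 10 muscle markers Des and Acta2 were tested, of which 1 rose in each group, summing to 12.8 and 15.3 in HF, where HFGSC gave 17.5 and 20.3 and GSC gave 16.8 and 18.4. Of 7 Sertoli cell markers on the array, Amh, Gata4, Fshr and Dhh were not detected, and of the 3 tested 1 rose and 1 fell in HFGSC and 1 rose in GSC, summing to 21.8 and 21.7 in HF, while HFGSC stood at 22.8 and 25.1 and GSC at 26.9 and 27.9. Of 7 leukocyte markers, Ptprc, Cd74, Tyrobp and Itgam were not detected, and of the 3 tested 1 fell in HFGSC and 2 rose and 1 fell in GSC, summing to 21.2 and 21.9 in HF, then 18.2 and 20.4 in HFGSC, then 23.5 and 25.9 in GSC. Fewer cells of a type and less RNA per cell cannot be told apart in such bulk samples.

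The study set both stem cell groups against HF cells. Against HF, 5 members rose and 3 fell in HFGSC, 8 of 62 (12.9%), where 26.5% of all tested genes were called in that comparison by limma at an adjusted p under 0.05. In GSC 9 members rose and 3 fell, 12 of 62 (19.4%), where 32.1% of all genes were called. The median log2 difference of the 62 members was -0.18 in HFGSC and -0.11 in GSC, beside medians of 0.05 and 0.07 over all tested genes. Of the 45 members detected on all 6 arrays, none rose and 3 fell in HFGSC (6.67%, beside 16.4% of all genes so detected), and 2 rose and 3 fell in GSC (11.1%, beside 21.8%). The members that rose were thus mostly not detected in HF, and their folds are lower bounds. Both comparisons use the same 2 HF arrays.

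With the replicate number as a block the calls were more numerous. In that fit 11 members rose and 14 fell in HFGSC (40.3%, where 46.9% of all genes were called), and 17 rose and 12 fell in GSC (46.8%, where 51.9% were called). Over all tested genes, the shares of members called stayed below those of all genes in both fits. Among genes detected on all 6 arrays this did not hold with the block. There 18 of 45 members were called in HFGSC (40%, beside 39.8% of all genes so detected) and 21 of 45 in GSC (46.7%, beside 45.1%). The block is taken from the data and rests on 2 residual degrees of freedom, and it is given below beside each member whose call it changes.

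**Figure D1:**
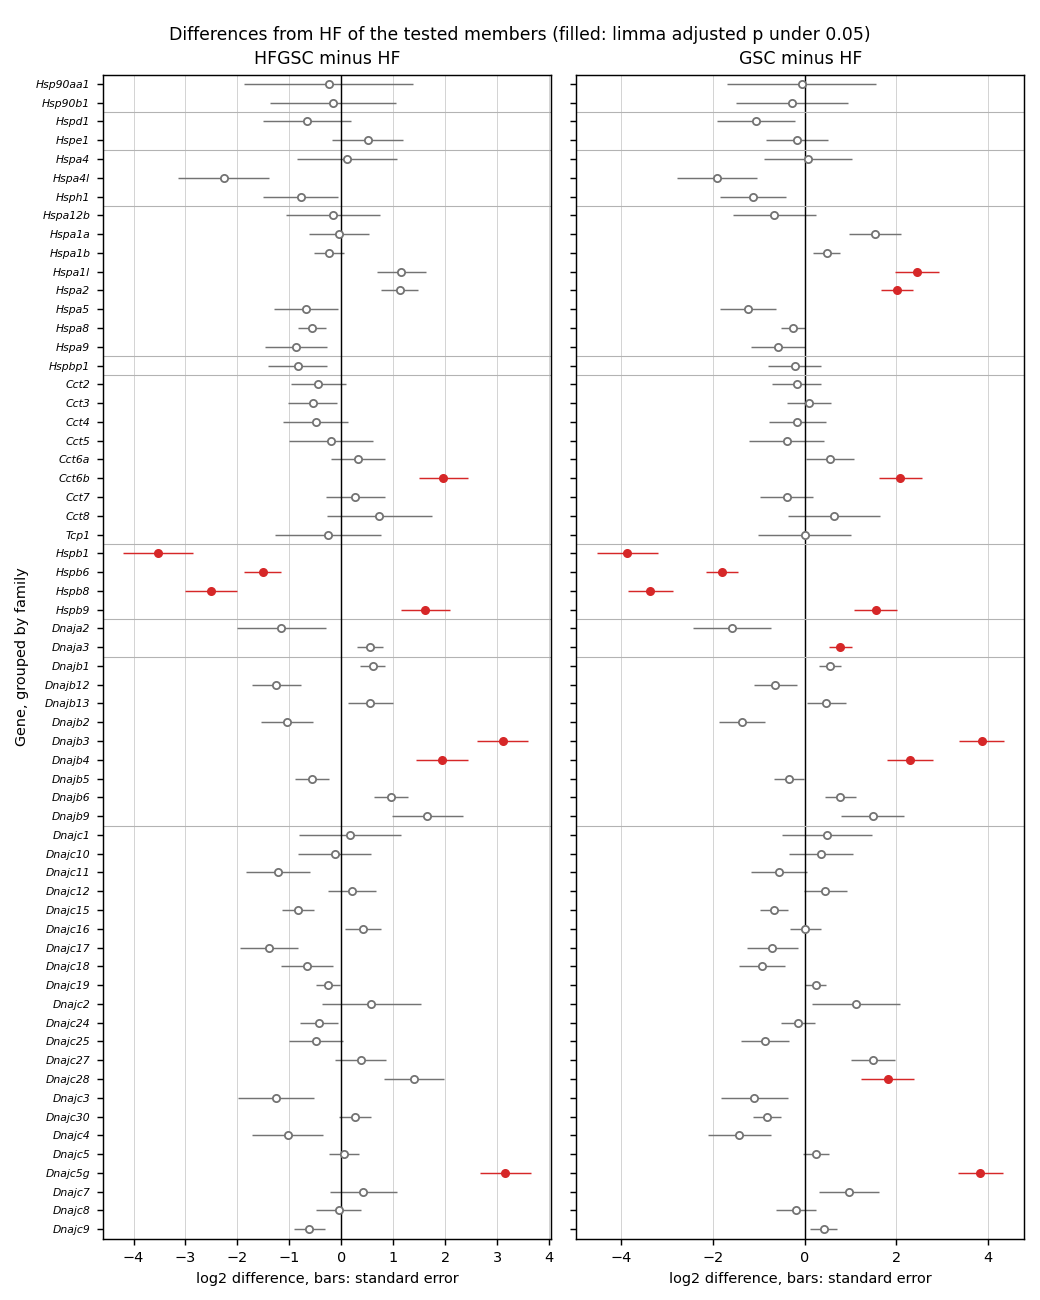
Log2 difference from HF of each of the 62 tested members, HFGSC at the left and GSC at the right, grouped by family, with bars for the standard error of the fit and red filled points for members that passed. The small heat shock proteins Hspb1, Hspb6 and Hspb8 are the filled points left of 0 in both panels, while Hsp90aa1 and Hsp90b1 lie near 0 with the longest bars.

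The small heat shock proteins moved in opposite directions. Hspb1 (Hsp27), which binds unfolded clients and actin, read 10.06 and 11.73 in HF, while HFGSC stood at 7.46 and 7.27 and GSC at 6.67 and 7.39. Both HF arrays lay above the other four arrays, and the 2 HF arrays themselves lay more than 1 unit apart. Hspb1 fell by 3.53 on the log2 scale in HFGSC (SE 0.67, 11.5-fold lower, limma adjusted p = 0.00823) and its GSC difference was -3.87 (14.6-fold lower, adjusted p = 0.005). Without HF replicate 2, the brighter HF array, the HFGSC call was lost (adjusted p = 0.0606).

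Hspb8, which acts with the cochaperone Bag3 to route damaged proteins to autophagy, read 13.30 on both HF arrays, while HFGSC stood at 10.08 and 11.50 and GSC at 9.76 and 10.12. HFGSC replicate 2 lay nearer to HF than the other three stem cell arrays did. The gene fell by 2.51 on the log2 scale in HFGSC (SE 0.49, 5.69-fold lower, limma adjusted p = 0.00957, or 0.0513 without HF replicate 2), and its GSC difference was -3.36 (10.3-fold lower, adjusted p = 0.00247). Bag3 itself, at 14.05 and 14.07 in HF, then 12.85 and 13.08 in HFGSC, then 12.30 and 12.89 in GSC, fell as well (limma adjusted p = 0.0217 and 0.00625). A second Hspb8 probe read 11.25 on both HF arrays, while HFGSC stood at 7.10 and 9.88 and GSC at 7.17 and 8.02, again with HFGSC replicate 2 nearest to HF.

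Hspb6 (Hsp20), best known from muscle, read 13.05 and 13.02 in HF, where HFGSC gave 11.22 and 11.83 and GSC gave 10.94 and 11.53. The HFGSC and GSC arrays overlapped each other and lay below HF. The log2 difference was -1.51 in HFGSC (SE 0.36, 2.85-fold lower, limma adjusted p = 0.0189) and -1.80 in GSC (3.48-fold lower, adjusted p = 0.00822). The HFGSC call was lost without HF replicate 1, HF replicate 2 or HFGSC replicate 1, and the GSC call without HF replicate 1 (adjusted p = 0.0536). While Hspb6 and Hspb8 were lower than in HF, the summed muscle and fibroblast markers above were higher, and 1 fibroblast marker, Vim, read 14.36 and 14.39 in HF, while HFGSC stood at 10.29 and 12.54 and GSC at 10.35 and 10.86, with the part of such cells in the result not tested.

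Hspb9 is a small heat shock protein made in testis. It was not detected in HF, at 5.51 and 5.84, and read 7.48 and 7.09 in HFGSC and 6.66 and 7.78 in GSC. It was at least 1.79-fold higher in HFGSC (limma adjusted p = 0.0419) and GSC was at least 1.71-fold higher (adjusted p = 0.0415). The HFGSC call was lost under 8 of 15 alternatives, among them without each of the 4 HF and HFGSC arrays in turn, and the GSC call under 7. Of the other small heat shock proteins on the array, Hspb2, Hspb3, Hspb7 and Hspb11 were not tested.

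**Figure D2:**
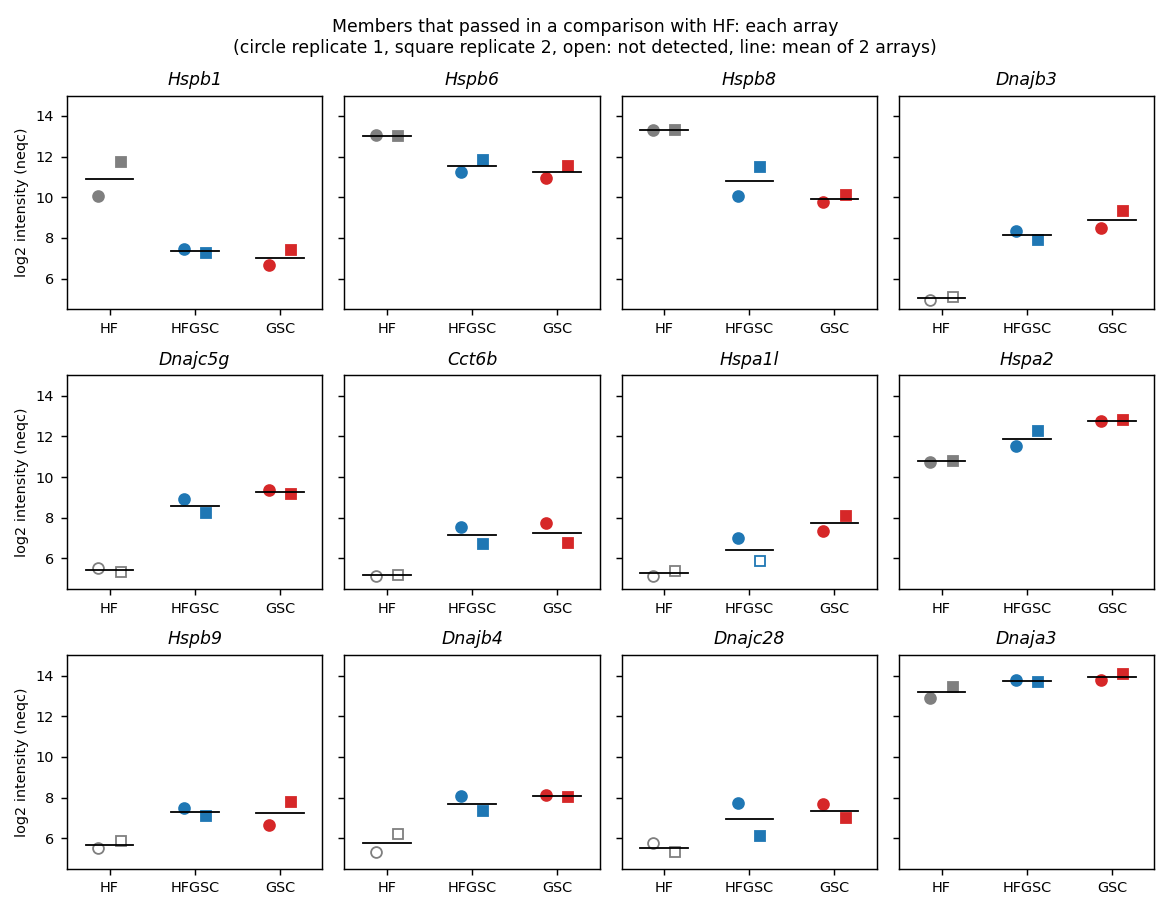
Log2 intensity on each array of the 12 members that passed in a comparison with HF, with circles for replicate 1, squares for replicate 2, open symbols where the probe was not detected and a line at the mean of 2 arrays. Hspb1, Hspb6 and Hspb8 are lower in HFGSC and GSC, and 7 of the 9 higher members have open symbols on both HF arrays.

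Within the Hsp70 family, Hspa2 and Hspa1l, both known from testis, rose in GSC. Hspa2, an Hsp70 of the testis that mouse spermatocytes need to complete meiosis, read 10.73 and 10.81 in HF, then 11.51 and 12.27 in HFGSC, then 12.76 and 12.80 in GSC. The arrays were ordered HF, HFGSC, GSC with no overlap. Hspa2 rose 4.03-fold in GSC (log2 difference 2.01, SE 0.35, limma adjusted p = 0.00505). In HFGSC the difference of 1.12 did not pass (adjusted p = 0.0509, or 0.00964 with the replicate block), and a test of HFGSC against GSC did not pass either (-0.89, adjusted p = 0.604). A second probe gave 8.31 and 8.85 in HF, where HFGSC gave 9.12 and 10.21 and GSC gave 10.35 and 10.79.

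Hspa1l, an Hsp70 expressed in spermatids, was not detected in HF (5.14 and 5.40), was detected on 1 of the 2 HFGSC arrays (7.0 and 5.86) and on both GSC arrays (7.37 and 8.07). GSC was at least 2.42-fold above HF (limma adjusted p = 0.00772). The HFGSC difference from HF of 1.16 did not pass (adjusted p = 0.116). Both Hspa1l and Hspa2 kept their GSC call under all 15 alternatives tried.

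The stress-inducible Hspa1a read 8.08 and 8.34 in HF, while HFGSC stood at 8.62 and 7.71 and GSC at 9.32 and 10.17. Only the GSC arrays lay clear of the rest. Its GSC difference of 1.53 from HF had a limma adjusted p of 0.0805 (0.0258 with the replicate block), and its HFGSC difference was -0.04. Hspa1b, detected on the GSC arrays only, read 6.01 and 5.93 in HF, then 5.57 and 5.87 in HFGSC, then 6.34 and 6.55 in GSC. The coding sequences of Hspa1a and Hspa1b are nearly identical, so how far each probe reads the other gene is uncertain.

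The housekeeping members of the family did not pass without the block. Hspa8, the constitutive cytosolic Hsp70, read 15.04 and 14.79 in HF, where HFGSC gave 14.64 and 14.06 and GSC gave 14.94 and 14.40, with the GSC arrays overlapping HF. Its HFGSC difference of -0.57 had a limma adjusted p of 0.155 (0.0188 with the replicate block). Hspa9, the mitochondrial Hsp70, read 14.66 and 14.00 in HF, while HFGSC stood at 14.21 and 12.70 and GSC at 14.44 and 13.05, and its HFGSC difference of -0.87 passed only with the block (adjusted p = 0.313 and 0.0168). In all 3 groups, replicate 2 was the dimmer array for both genes. Hspa5 (BiP), the Hsp70 of the endoplasmic reticulum, read 7.89 and 5.99 in HF, then 6.26 and 6.25 in HFGSC, then 6.11 and 5.31 in GSC, so HF replicate 1 alone stood high. Hspa12b, a distant relative known from endothelium, read 5.88 and 8.71 on the 2 HFGSC arrays, with the HF and GSC arrays in between. Hspbp1, which exchanges nucleotide on Hsp70, read 9.35 and 10.13 in HF, while HFGSC stood at 8.73 and 9.07 and GSC at 8.97 and 10.07, and did not pass.

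Testis forms were among the J-domain genes that passed, although Dnajb13, a protein of sperm flagella, passed in neither fit. The 2 genes that follow, Dnajb3 and Dnajc5g, passed the filter only through HFGSC and GSC, where they were bright. Dnajb3, a J-domain protein of sperm cells, was not detected in HF at 4.96 and 5.11, and read 8.36 and 7.91 in HFGSC and 8.47 and 9.32 in GSC. It was at least 3.23-fold higher in HFGSC (limma adjusted p = 0.00369) and GSC was at least 5.45-fold higher (adjusted p = 0.00135). All 4 stem cell arrays lay above both HF arrays, and a second Dnajb3 probe showed the same, at 4.93 and 5.25 in HF, then 8.11 and 7.71 in HFGSC, then 7.80 and 6.50 in GSC. Dnajc5g, the testis form of the cysteine string proteins that chaperone vesicle fusion, was undetected in HF at 5.53 and 5.33 and read 8.92 and 8.25 in HFGSC and 9.37 and 9.16 in GSC. It was at least 4.41-fold higher in HFGSC (limma adjusted p = 0.00352) and GSC was at least 7.04-fold higher (adjusted p = 0.00141). Dnajc5, the form of the same family known from nerve terminals, read 11.91 and 11.93 in HF, where HFGSC gave 11.81 and 12.12 and GSC gave 12.12 and 12.21, with differences of 0.05 and 0.24 that did not pass. Dnajb3 and Dnajc5g kept both calls under all 15 alternatives. The spermatogonial and meiotic marker sums given above were also higher in HFGSC and GSC than in HF. The HF arrays, however, detected only 1 and 3 of the 10 spermatogonial markers and 0 of the meiotic ones. The tested meiotic markers thus passed the filter only through HFGSC or GSC, where they were bright, and 7 of 11 were detected on no array. The part of such cells in these results was not tested.

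Dnajb4, a partner of cytosolic Hsp70, read 5.34 and 6.21 in HF, while HFGSC stood at 8.09 and 7.33 and GSC at 8.11 and 8.04. It was at least 2.39-fold higher in HFGSC (limma adjusted p = 0.0269) and GSC was at least 3.09-fold higher (adjusted p = 0.0120). A different Dnajb4 probe went the other way, at 7.54 and 5.67 in HF, then 6.63 and 6.33 in HFGSC, then 6.46 and 5.14 in GSC, and the HFGSC and GSC calls were both lost when probes were averaged. The HFGSC call was also lost without HF replicate 1, HF replicate 2 or HFGSC replicate 1, and the GSC call without HF replicate 1, GSC replicate 1 or GSC replicate 2. Dnajc28 read 5.75 and 5.30 in HF, where HFGSC gave 7.73 and 6.11 and GSC gave 7.67 and 7.0, with GSC at least 1.85-fold higher (adjusted p = 0.0472, with a HFGSC adjusted p of 0.116, or 0.0183 with the replicate block). Dnaja3, a mitochondrial partner of Hspa9, read 12.91 and 13.43 in HF, while HFGSC stood at 13.77 and 13.66 and GSC at 13.80 and 14.09, 1.71-fold higher in GSC (adjusted p = 0.0495). Both other Dnaja3 probes went the other way in GSC, by -0.69 and -0.05, and the difference was 0.009 (adjusted p = 0.992) when probes were averaged. The Dnaja3 call was lost under 11 of 15 alternatives and the Dnajc28 GSC call under 8.

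Other J-domain genes passed only with the replicate block. Dnajb1, the J-domain partner of inducible Hsp70, read 12.59 and 12.65 in HF, then 13.08 and 13.37 in HFGSC, then 13.08 and 13.28 in GSC, every stem cell array above HF (limma adjusted p = 0.104 and 0.119, or 0.0274 and 0.0338 with the block). Dnajb9, a J-domain protein of the endoplasmic reticulum, read 9.95 and 8.51 in HF, where HFGSC gave 10.99 and 10.79 and GSC gave 11.54 and 9.89 (adjusted p = 0.119 and 0.143, or 0.0107 and 0.0150 with the block). Dnajb2, known from neurons, read 11.33 and 11.77 in HF, while HFGSC stood at 10.14 and 10.86 and GSC at 9.64 and 10.72 (adjusted p = 0.166 and 0.0744, or 0.0162 and 0.00455 with the block). Dnajb1 and Dnajb9 were thus higher and Dnajb2 lower in that fit. Dnajc3 read 10.22 and 9.17 in HF, then 9.12 and 7.75 in HFGSC, then 9.28 and 7.92 in GSC (adjusted p = 0.247 and 0.297, or 0.0159 and 0.0246 with the block). With the block, Dnajc4 and Dnajc15 were also lower in both groups, Dnajb12, Dnajc11 and Dnajc17 lower in HFGSC, Dnaja2 and Dnajc30 lower in GSC, and Dnajc2, Dnajc7 and Dnajc27 higher in GSC.

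Several J-domain genes read lower on replicate 2 in each group. Dnajc1, which recruits BiP to the membrane where proteins enter, read 7.99 and 6.96 in HF, then 9.21 and 6.07 in HFGSC, then 8.33 and 7.58 in GSC. Dnajc10, which also reduces disulfide bonds, read 12.23 and 11.25 in HF, where HFGSC gave 12.44 and 10.79 and GSC gave 12.89 and 11.31. These Dnajc10 values are of its brightest probe, and the other 2 probes tested had gaps of 0.17, -0.53 and 0.10, and of 0.41, -0.24 and -0.04, in the order HF, HFGSC, GSC. Neither gene passed in either fit, and the HFGSC arrays spanned the HF arrays for both. Dnajc2, which works on nascent chains at the ribosome, read 10.90 and 9.81 in HF, while HFGSC stood at 12.32 and 9.54 and GSC at 12.31 and 10.64, and its GSC difference of 1.12 passed only with the block (limma adjusted p = 0.409 and 0.0446). Dnajc7, which binds both Hsp70 and Hsp90, read 11.04 and 10.12 in HF, then 11.81 and 10.20 in HFGSC, then 12.10 and 10.99 in GSC (GSC adjusted p = 0.300, or 0.0191 with the block). For Dnajc2 and Dnajc7, GSC lay above HF within each replicate number.

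Several J-domain genes with steadier replicates did not pass without the block either. Dnajc27, which joins a J-domain to a small GTPase fold, read 8.64 and 9.32 in HF, where HFGSC gave 9.33 and 9.36 and GSC gave 10.22 and 10.72. On this brightest probe all HFGSC and GSC arrays lay above both HF arrays, the HFGSC ones narrowly (GSC difference 1.49, limma adjusted p = 0.0504, or 0.00605 with the block). A dimmer Dnajc27 probe read 6.81 and 7.46 in HF, then 6.73 and 6.69 in HFGSC, then 7.16 and 7.96 in GSC. There HFGSC lay below HF and GSC overlapped HF, and neither difference passed. Dnajc15, of the mitochondrial inner membrane, read 12.25 and 12.23 in HF, while HFGSC stood at 11.51 and 11.29 and GSC at 11.44 and 11.70. All HFGSC and GSC arrays of Dnajc15 lay below HF (adjusted p = 0.0809 and 0.133, or 0.0195 and 0.0404 with the block). Dnajb12, an anchored partner of Hsp70 at the endoplasmic reticulum, read 10.50 and 10.95 in HF, then 9.28 and 9.66 in HFGSC, then 9.70 and 10.48 in GSC, with HFGSC clear of HF (adjusted p = 0.0895, or 0.00901 with the block). Dnajb13, a protein of sperm flagella, read 6.03 and 6.53 in HF, where HFGSC gave 6.92 and 6.75 and GSC gave 6.31 and 7.19, and did not pass in either fit. Another probe of Dnajc16 read 9.23 and 9.85 in HF, while HFGSC stood at 11.17 and 10.95 and GSC at 10.90 and 11.23, and was higher when fitted singly (1.52 and 1.53, adjusted p = 0.0331 and 0.0278), whereas the brightest Dnajc16 probe differed by 0.41 and 0.02 and did not pass. Over all 22 tested Dnajc genes, 1 rose in HFGSC, 2 rose in GSC and none fell without the block, and of 9 tested Dnajb genes 2 rose in each group and none fell. In that fit 26.5% of all tested genes were called in HFGSC and 32.1% in GSC.

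Probes of Dnajb6 went in opposite directions. The brightest probe read 11.64 and 11.54 in HF, where HFGSC gave 12.91 and 12.16 and GSC gave 12.40 and 12.34, and a second probe read 10.97 and 10.02, 12.33 and 11.68, and 11.92 and 10.51 in the same order. Another probe read 11.18 and 11.63 in HF, while HFGSC stood at 9.46 and 10.50 and GSC at 9.69 and 9.88. The brightest probe was higher than HF by 0.95 and 0.78 (limma adjusted p = 0.0728 and 0.115, or 0.0154 and 0.0299 with the replicate block). With each probe fitted singly, that other probe was lower than HF by a log2 difference of -1.43 in HFGSC (adjusted p = 0.0663) and -1.63 in GSC (adjusted p = 0.0381). The dimmest probe differed by -1.08 in HFGSC (adjusted p = 0.101) and by -1.73 in GSC (adjusted p = 0.0191). These probes carry different transcript accessions in the platform annotation, so the sign of Dnajb6 depends on the probe, and isoforms were not measured apart in any other way.

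The cytosolic chaperonin TRiC is a ring of related subunits that folds actin and tubulin. Of its 9 tested genes Cct6b rose in both stem cell groups and none fell, where 26.5% and 32.1% of all tested genes were called. Cct6b, the testis version of the subunit encoded by Cct6a, was not detected in HF at 5.14 and 5.20, and read 7.56 and 6.70 in HFGSC and 7.75 and 6.75 in GSC. It was at least 1.60-fold higher in HFGSC (limma adjusted p = 0.0207) and GSC was at least 1.75-fold higher (adjusted p = 0.0141). The HFGSC call was lost without HF replicate 1, HF replicate 2 or HFGSC replicate 1, and the GSC call without HF replicate 1, HF replicate 2 or GSC replicate 1. Cct6a read 14.02 and 13.33 in HF, then 14.62 and 13.36 in HFGSC, then 14.82 and 13.63 in GSC, overlapping HF, and its GSC difference of 0.55 passed only with the replicate block (adjusted p = 0.454 and 0.0425).

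No other TRiC subunit passed without the block. Tcp1 read 13.12 and 11.45 in HF, where HFGSC gave 13.19 and 10.85 and GSC gave 13.53 and 11.04. Cct8 read 13.23 and 11.50 in HF, while HFGSC stood at 14.19 and 12.00 and GSC at 14.29 and 11.73. For both, replicate 1 was high and replicate 2 low in every group, and with the replicate block Cct8 was higher in HFGSC (limma adjusted p = 0.0366, or 0.634 without it). Cct3 read 13.45 and 13.25 in HF, then 13.46 and 12.13 in HFGSC, then 13.91 and 12.96 in GSC. Cct4 read 13.86 and 13.10 in HF, where HFGSC gave 13.80 and 12.17 and GSC gave 14.02 and 12.62. These 2 bright subunits showed the same order of replicates. Dimmer subunits were Cct2 at 7.34 and 6.43 in HF, while HFGSC stood at 6.63 and 6.25 and GSC at 7.32 and 6.11, and Cct5 at 7.70 and 5.73 in HF, then 6.92 and 6.13 in HFGSC, then 7.29 and 5.35 in GSC. Cct7 read 7.17 and 5.91 in HF, where HFGSC gave 6.75 and 6.85 and GSC gave 6.80 and 5.49, the only subunit without a drop on HFGSC replicate 2.

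Hsp90 showed no difference between groups beyond the spread within them. Hsp90aa1, the inducible cytosolic Hsp90, read 9.86 and 7.14 in HF, while HFGSC stood at 9.68 and 6.83 and GSC at 10.70 and 6.16. Every replicate 1 array lay above every replicate 2 array, whichever the group. Its difference from HF was -0.24 in HFGSC and -0.07 in GSC, each with an SE of 1.63 (limma adjusted p = 0.929 and 0.982), an SE several times the difference itself. Hsp90b1 (Grp94), the Hsp90 of the endoplasmic reticulum, read 13.60 and 11.34 in HF, then 13.35 and 11.26 in HFGSC, then 13.89 and 10.50 in GSC, the same division by replicate number. A second Hsp90aa1 probe, detected on 3 arrays and left out by the filter, read 7.15 and 5.04 in HF, where HFGSC gave 6.05 and 5.18 and GSC gave 7.16 and 4.97.

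The mitochondrial pair whose shared repeat is shown above behaved likewise. Hspd1 read 13.97 and 12.47 in HF, while HFGSC stood at 13.05 and 12.06 and GSC at 13.44 and 10.88. Hspe1 read 11.93 and 10.36 in HF, then 11.77 and 11.52 in HFGSC, then 11.80 and 10.14 in GSC. Replicate 2 was lower for both genes in each group, although for Hspe1 the HFGSC arrays lay only 0.25 apart. Neither passed in a comparison with HF, except that Hspd1 was lower in GSC with the replicate block (log2 difference -1.06, limma adjusted p = 0.379 without and 0.0348 with the block). A second Hspd1 probe read 12.02 and 11.37 in HF, where HFGSC gave 10.31 and 9.34 and GSC gave 11.00 and 9.87 and, fitted singly, was lower in HFGSC by a log2 difference of -1.87 (adjusted p = 0.0451).

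The Hsp110 genes Hsph1, Hspa4 and Hspa4l were also lower on replicate 2 throughout. Hsph1 read 12.96 and 11.54 in HF, while HFGSC stood at 12.24 and 10.69 and GSC at 11.83 and 10.42. Its differences from HF of -0.78 and -1.12 passed only with the replicate block (limma adjusted p = 0.462 and 0.277 without, 0.0210 and 0.00406 with it). Hspa4l, strongly expressed in testis in mouse, read 9.65 and 8.35 in HF, then 7.99 and 5.49 in HFGSC, then 7.51 and 6.69 in GSC. The stem cell arrays all lay below HF, with differences of -2.27 and -1.90 (adjusted p = 0.0981 and 0.140, or 0.00574 and 0.0106 with the block). Hspa4 read 9.59 and 7.72 in HF, where HFGSC gave 9.21 and 8.30 and GSC gave 9.95 and 7.51, with differences of 0.11 and 0.08.

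Replicate 2 was lower than replicate 1 in all 3 groups for 27 of the 62 tested members (43.5%), where 22% of all tested genes showed this. It was higher in all 3 groups for 14 members (22.6%), where 35.5% of all genes did, and 21 members were mixed. A drop of at least 1 log2 unit in every group was seen in 7 members (11.3%), where 4.57% of all genes had it. The direction of a gap rests on the numbering in the labels, each gap comes from 2 arrays, and the rule that defined the genes named this gap, so no test is given. All 3 groups contribute their own arrays, so no array is shared between the gaps. The gaps nevertheless correlated across all genes, at 0.436 for HF and HFGSC, 0.757 for HF and GSC and 0.58 for HFGSC and GSC. A direction shared by all 3 groups is therefore not 3 independent repeats.

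By family, the gap was lower in all 3 groups for both Hsp90 genes, all 3 Hsp110 genes, both Hsp60 and Hsp10 genes and 7 of 9 TRiC genes. Hsp70 members were mixed, with 3 of 8 lower and 2 higher. The Dnajc genes divided into 8 lower and 7 higher of 22, and the Dnajb genes into 2 lower and 3 higher of 9. None of the 4 small heat shock proteins and neither Dnaja gene was lower in all 3 groups.

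The deepest gap belonged to Hsp90aa1, with replicate 2 lower by 2.72 in HF, 2.86 in HFGSC and 4.53 in GSC, the last a 23.2-fold difference between 2 arrays of 1 group. That GSC replicate 2 value, 6.16, lay near the lowest detected signal of its array, 5.99. The GSC gap of Hsp90aa1 was -3.39 without background correction. In the authors' values Hsp90aa1 had gaps of -2.06, -2.06 and -3.31, and Hsp90b1 deeper ones of -2.30, -2.11 and -3.40, in the order HF, HFGSC, GSC. In the values used here the gaps were -2.27, -2.09 and -3.39 for Hsp90b1, -1.66, -2.34 and -2.49 for Tcp1, and -1.73, -2.19 and -2.56 for Cct8, in the same order. Ranked by mean size over the groups among members detected on all 6 arrays, Dnajc2 came next, a ribosome-associated J-domain protein, at -1.10, -2.77 and -1.67. Hspa4 followed with -1.87, -0.91 and -2.45 and Hspd1 with -1.50, -0.99 and -2.56. The remaining 3 of the 10 widest among them were Dnajc1 and Dnajc10, J-domain proteins of the endoplasmic reticulum, and Hsph1, all lower on replicate 2 in each group. Cct5, Hspa12b and Hspa4l, detected on 4, 5 and 5 arrays, had mean gaps of 1.57, 1.55 and 1.54 in size, above the 1.46 of Hsph1 and the 1.40 of Dnajc10. In the opposite direction, Dnajc4 was higher on replicate 2 by 0.78, 1.26 and 1.26, Dnajc11 by 0.81, 0.81 and 1.07, and Hspa12b by 0.82, 2.83 and 1.00.

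**Figure D3:**
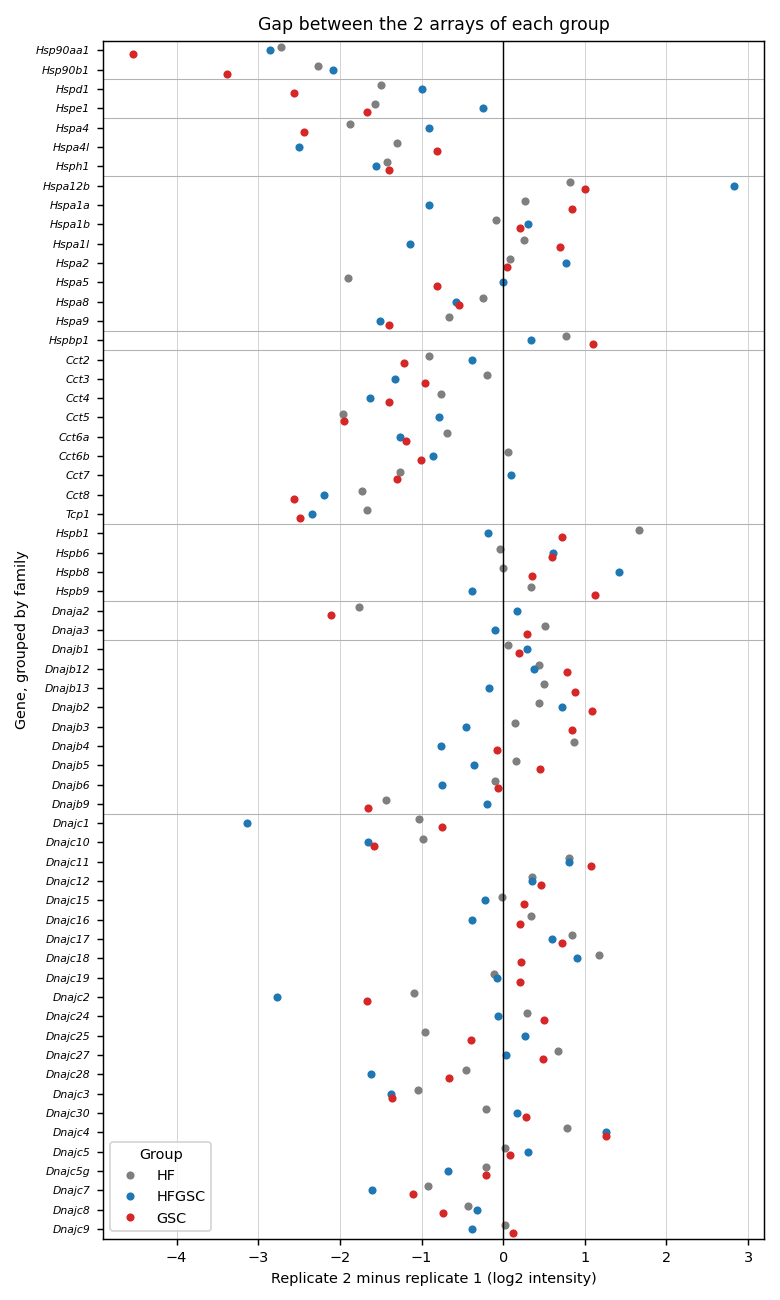
Replicate 2 minus replicate 1 in log2 intensity for each of the 62 tested members, with 1 point per group and families separated by lines. Points of Hsp90, Hsp110, Hsp60/Hsp10 and most TRiC genes lie left of 0 in all 3 groups, and those of small heat shock proteins scatter around 0.

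The size of the gap was also larger for the members than for all genes. The median absolute gap of the members was 0.68 in HF, 0.69 in HFGSC and 0.83 in GSC, beside 0.41, 0.51 and 0.57 over all tested genes. An absolute gap over 1 log2 unit was seen in 30.6%, 32.3% and 43.5% of members and in 14.8%, 26.3% and 20.4% of all genes. Under median scaling in place of quantile normalization, which moved the median gap of all genes from 0.11 to 0.16 in HF, from 0.05 to 0.25 in HFGSC and from 0.24 to 0.32 in GSC, 22 members (35.5%, all genes 18.7%) were lower on replicate 2 in all 3 groups and 19 (30.6%, all genes 44.4%) higher. The Hsp90 genes and the Hsp110 genes kept their direction under that scaling in every group. Hspe1 in HFGSC and Cct3 in HF turned to 0.10 and 0.07, leaving 6 of 9 TRiC genes and 1 of the Hsp60 and Hsp10 pair lower, and the counts became 2 lower and 2 higher of 8 for Hsp70, 0 and 3 of 9 for Dnajb and 8 and 10 of 22 for Dnajc. No label gives a slide, a scan or a preparation day, so what the replicate numbers stand for was not tested.

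**Figure D4:**
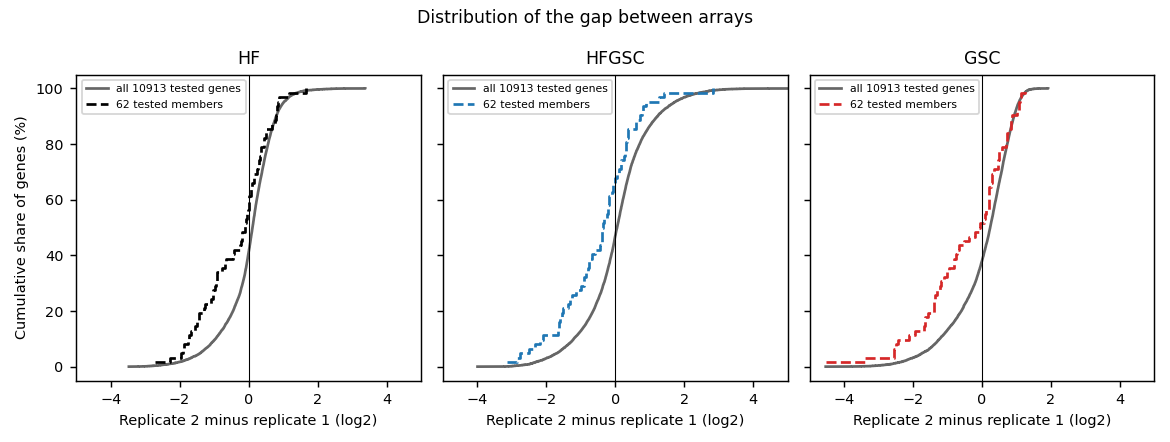
Cumulative share of genes by replicate 2 minus replicate 1 in log2 intensity, 1 panel per group, with a grey line for all 10913 tested genes and a dashed line for the 62 members. The dashed line lies left of the grey one over most of the range below 0 in each panel, and 43.5% of members but 20.4% of all genes lie more than 1 unit from 0 in GSC.

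Hspa8 shows that the gap can differ between probes of 1 gene. Its brightest probe had gaps of -0.25, -0.58 and -0.54, another had -2.29, 0.00 and -2.83, and the third had -0.33, -0.39 and -0.81, in the order HF, HFGSC, GSC. The second of these read 13.60 and 11.31 in HF, while HFGSC stood at 12.06 and 12.05 and GSC at 12.66 and 9.83. For Tcp1, both probes had replicate 2 lower in every group, the dimmer one by 1.49, 0.91 and 2.28. The probes of 1 transcript therefore did not always carry gaps of 1 size, and the position of the probes along the transcripts was not used here.

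**Figure D5:**
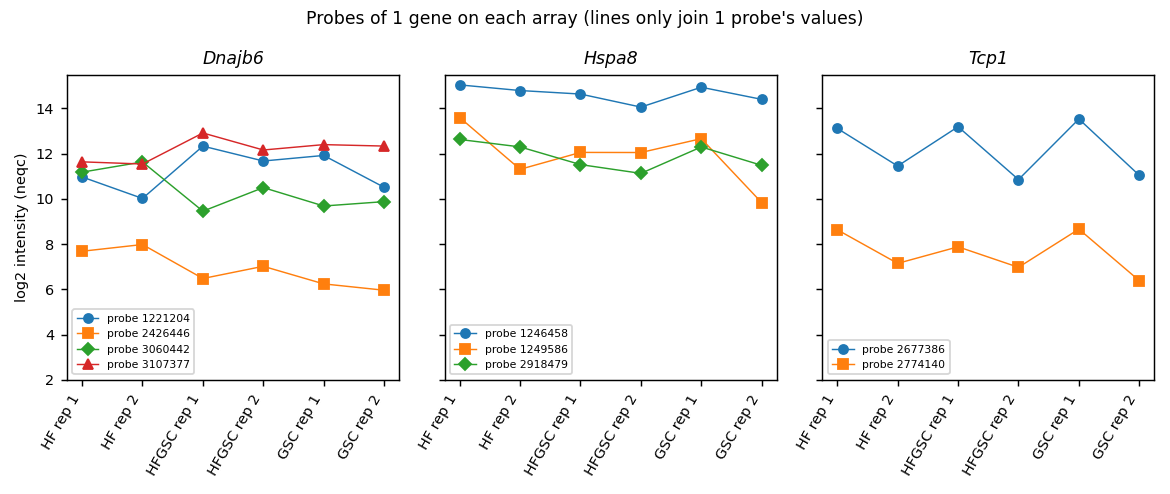
Log2 intensity on each of the 6 arrays for every probe that passed the filter for Dnajb6, Hspa8 and Tcp1, with lines that only join values of 1 probe. In Dnajb6, 2 probes have higher and 2 have lower means in HFGSC and GSC than in HF, while both Tcp1 probes are high on replicate 1 and low on replicate 2 of each group.

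The promoter repeats were set beside the gap as a description. Among the members lower on replicate 2 in all 3 groups, 22 had a promoter sequence, 3 of them (13.6%) with the longer repeat and 7 (31.8%) with the shorter one. The shares were 4.69% and 25% of all members with a sequence, and 0.514% and 14.5% of all genes. No share is given for all genes lower on replicate 2, so these small counts are no trait of the gap. The 3 with the longer repeat were Hspd1 and Hspe1, whose repeat is a single site counted for both genes, and Dnajb6. Under median scaling Hspd1 alone of the 3 was lower in all groups, with Hspe1 at 0.10 in HFGSC and Dnajb6 at 0.08 in HF and 0.27 in GSC, and another Dnajb6 probe was higher on replicate 2 by 0.45, 1.04 and 0.19. Among those higher in all 3 groups, 10 had a sequence, none with the longer and 1 with the shorter repeat. Hspa1a, whose shorter repeat is shown above, was higher on replicate 2 in HF and GSC by 0.26 and 0.85 and lower by 0.91 in HFGSC, unlike Hspd1, Hspe1 and Hsph1. Hspb1, which has 2 shorter repeats, was higher on replicate 2 by 1.66 in HF and 0.72 in GSC and lower by 0.19 in HFGSC.

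HFGSC and GSC were set against each other directly. None of the 62 members passed at a limma adjusted p under 0.05, where 0.44% of all tested genes did (1.59% with the replicate block, again without a member). At an unadjusted p under 0.05, 6 members (9.68%) and 803 of all genes (7.36%) differed, and 10 members (16.1%) and 2001 of all genes (18.3%) did with the block. The 6 were Hspa1a, Hspa1b, Hspa1l, Hspa2, Dnajc9 and Dnajc30. Of these, Hspa1b, Hspa1l and Dnajc9 passed the filter through GSC alone, the group in which they were bright. Among genes detected on all 6 arrays, 3 of 45 members (6.67%) and 4.42% of all genes had a limma unadjusted p under 0.05 without the block. The median log2 difference of the members was -0.20, beside -0.01 for all genes. For Hspa1a, the widest of them, the log2 difference was -1.58 (adjusted p = 0.552), and for Hspa1l it was -1.30 (adjusted p = 0.553). A p that misses the threshold does not show that the 2 groups hold alike levels.

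The genes that work with these chaperones were followed by list. The counts of each list stand beside 26.5% of all tested genes called in HFGSC and 32.1% in GSC. With the replicate block these shares were 46.9% and 51.9%. A count near or below these shares is no trait of its list. Of 5 tested heat shock factors and heat shock factor binding proteins, Hsf5 and Hsbp1l1 rose and Hsf4 fell in both stem cell groups. Hsf5, a factor known from testis, was not detected in HF at 5.53 and 5.17, and read 8.96 and 9.0 in HFGSC and 9.45 and 9.87 in GSC, at least 5.80-fold and at least 9.24-fold higher (limma adjusted p = 0.00199 and 0.000852). Hsf4, known from the lens, read 8.15 and 8.44 in HF, then 5.76 and 5.78 in HFGSC, then 5.40 and 5.85 in GSC and was at least 5.16-fold and at least 5.11-fold lower. Hsf2 read 7.51 and 6.60 in HF, where HFGSC gave 6.48 and 6.97 and GSC gave 6.54 and 6.71 and did not pass. Hsf1 could not be read, since no probe carried it as its only annotated symbol.

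Of 27 tested cochaperones of Hsp70 and Hsp90, 3 rose and 3 fell in HFGSC and 3 rose and 4 fell in GSC, with medians of -0.02 and -0.42. Fkbp4, an immunophilin of the Hsp90 steroid receptor complex, read 13.38 and 13.56 in HF, while HFGSC stood at 14.89 and 14.90 and GSC at 14.86 and 14.90 (2.68-fold and 2.66-fold higher, limma adjusted p = 0.00124 and 0.00112). Its relative Fkbp5, an immunophilin that opposes steroid receptor activity, was 3.77-fold lower in HFGSC and 2.71-fold lower in GSC. Tomm34, which binds Hsp70 and Hsp90, was 4.45-fold and 4.30-fold higher, Ahsa2, a relative of the Hsp90 activator Ahsa1, 4.21-fold and 3.20-fold lower. These 4 cochaperones passed in both comparisons, while neither Hsp90 gene did. With the replicate block 4 rose and 7 fell in HFGSC and 4 rose and 8 fell in GSC.

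Of 9 tested prefoldin subunits and chaperonin cofactors, Pfdn4, Pdcl3 and Pdrg1 fell in both groups and Pfdn2 rose in GSC, with medians of -1.01 and -0.95. Pfdn4, a subunit of the prefoldin complex that hands actin and tubulin to TRiC, read 13.40 and 13.49 in HF, then 11.92 and 12.13 in HFGSC, then 11.97 and 12.29 in GSC (2.67-fold and 2.49-fold lower, limma adjusted p = 0.00785 and 0.00901). Of 14 tested folding genes of the endoplasmic reticulum, none rose and 3 fell in HFGSC (7 with the replicate block), and 1 rose and 5 fell in GSC, with medians of -0.72 and -0.30. Serpinh1 (Hsp47), the collagen chaperone, read 15.36 and 15.69 in HF, where HFGSC gave 13.43 and 14.51 and GSC gave 12.95 and 13.45. It was 2.93-fold and 4.99-fold lower, and Hyou1, an Hsp110 relative of the endoplasmic reticulum, read 7.94 and 7.89 in HF, while HFGSC stood at 7.69 and 8.78 and GSC at 10.60 and 10.35, 5.93-fold higher in GSC (adjusted p = 0.0113) with a HFGSC difference that did not pass (adjusted p = 0.701).

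Of 11 tested regulators and targets of the unfolded protein response, 1 rose and 3 fell in HFGSC and 2 rose and 5 fell in GSC, with medians of -0.58 and -1.13. Ppp1r15a, which lifts the translation block of this response, was 2.77-fold and 3.06-fold higher. Chac1, a target of the factor Atf4, read 12.83 and 13.98 in HF, then 11.23 and 11.94 in HFGSC, then 9.06 and 9.95 in GSC, 3.53-fold and 14.9-fold lower (limma adjusted p = 0.0376 and 0.00163), and Xbp1 fell 2.34-fold in GSC. Of 10 tested mitochondrial chaperones and proteases, Htra2, a mitochondrial protease, was 4.89-fold and 6.11-fold lower and Atf5, a factor of the mitochondrial stress response, 3.86-fold lower in GSC, with none higher and medians of -0.48 and -0.06. Of 16 tested immediate early genes, 6 rose and 2 fell in HFGSC and 5 rose and 2 fell in GSC (5 and 6 with the replicate block), with medians of 0.59 and -0.02. Egr1, a growth factor response gene, read 11.32 and 11.12 in HF, where HFGSC gave 15.23 and 15.32 and GSC gave 15.05 and 14.59, and Fos 8.68 and 7.83, 12.28 and 13.99, and 11.74 and 10.98. Egr1 and Fos were 16.6-fold and 29.4-fold higher in HFGSC and 12.1-fold and 8.60-fold higher in GSC, while neither Hspa1a nor Hspa1b passed in the same comparisons without the block.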

How the data were processed

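Total RNA of 6 mouse samples was hybridised as amplified biotinylated cRNA to bead arrays of Illumina, per the labels' protocols. Deposited intensities are linear bead summaries per probe, not normalized, and beside each the authors deposited a detection p-value, per the file headers. The authors' second deposited table holds log2 values, no more than 0.161 away from quantile-normalized log2 intensities, with a median of 7.05 on every array. The scale is log2 and uncentred, and direction has no meaning for single-channel arrays. The submitters' processing notes name GenomeStudio 2011.1 and R 3.0.2 and give them no role. Array mean intensities lay between 911 and 1149, with 16094 to 19552 probes detected, and the number of arrays limits the precision.

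Samples were grouped by title. Background was estimated from the detection p-values and quantile normalization applied with neqc (offset 16) of limma 3.58.1 in R 4.3.3. Probes were kept if both arrays of 1 or more groups had a detection p under 0.05, and the brightest probe represented its gene. Symbols came from the platform annotation, with RefSeq of GRCm38.p6. A linear model with a mean-variance trend was fitted to all 6 arrays (3 residual degrees of freedom) for 3 comparisons, with Benjamini-Hochberg adjustment over 10913 genes and a threshold of 0.05. The test was checked on simulated data in which arrays varied independently, so that check does not cover gaps shared by replicate number. A fold is a lower bound where neither array of the dimmer group detected the probe: the brighter mean was set against a floor, averaged over the dimmer arrays, of the lowest detected signal or, if higher, the signal measured. Other folds are measured.

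No label ties replicate numbers to an animal or batch. Gaps between replicates correlated across genes at 0.436 (HF and HFGSC), 0.757 (HF and GSC) and 0.58 (HFGSC and GSC), and on that ground alone same-numbered arrays were treated as pairs in the block, and the fit without the block stayed the reported one. The members, the related lists, the markers, the tests and the alternatives were chosen with earlier results of these data known. Full values were given for the members with the largest changes that passed, the 10 widest replicate gaps among members detected on all 6 arrays, the Hsp90, Hsp60, Hsp110 and TRiC members, and at most 4 genes of lowest adjusted p per related list. Remaining members and probes named were chosen after their values were seen. Promoters were the 250 bases before each RefSeq start.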

Additional observations from a re-analysis of the deposited data

Results flagged for a closer look

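Among members detected in these groups, 2 lay on opposite sides of HF in the 2 stem cell groups, with every HFGSC array to 1 side of both HF arrays and every GSC array to the other. A direct limma test of HFGSC against GSC did not pass for either. No share of all tested genes in such an order stands beside this count, so it is not read as a trait of the members. Dnajc30, a mitochondrial J-domain protein, read 12.09 and 11.88 in HF, then 12.16 and 12.34 in HFGSC, then 11.03 and 11.31 in GSC, a log2 difference of 1.08 between HFGSC and GSC (adjusted p = 0.319). Dnajc19, of the mitochondrial import motor, read 13.10 and 12.99, 12.83 and 12.76, and 13.18 and 13.39 on its brightest probe, a difference of -0.49 (adjusted p = 0.743). The direction depended on the probe for Dnajc19, since its other 2 tested probes had differences of 0.78 and 0.42, with GSC below HF. Both genes share the same 2 HF arrays, and the difference between their 2 effects was tested only through this comparison.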

How the results depend on the processing

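With 2 arrays per group, the replicate block and leaving out 1 array both moved the counts. Without 1 array, called genes ranged from 1505 to 2829 in HFGSC against HF and from 1819 to 3855 in GSC against HF, called members from 2 to 10 and from 6 to 13, and HFGSC against GSC gave 0 to 64 genes and 0 to 0 members. The single remaining array of a group was then assumed to vary like the others. The replicate block raised the counts of all genes to 5122, 5669 and 174 in the 3 comparisons and of members to 25 and 29. In HFGSC against GSC, 13 genes passed with no trend and 19 with only the 2 groups compared in the fit. Every other setting left the counts of members within 1.5 times. Of 300 values of called members under the alternatives, 245 kept direction and call, 55 kept direction but lost the call (34 of 120 without 1 array, 21 of 180 otherwise), and 0 changed direction. The cause was not tested. Fitting each probe singly was chosen after seeing the data. Signal near background limits Hspb9, Dnajc28, Cct6b, Dnajb4, Dnajb3, Dnajc5g and Hspa1l, whose brightest probes were not detected in HF. It also limits the gaps of Hspa5, Cct5 and Cct7, detected on 4 arrays. Without background correction their HF gaps went from -1.90 to -1.08, from -1.97 to -1.07 and from -1.26 to -0.65.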
